A study of Mus musculus with 12 samples.

Results

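The libraries of mouse cardiomyocytes, the contractile cells of the heart, were divided by their level of Dbp, a transcription factor gene whose RNA cycles strongly over the day. Dbp CPM was the raw count divided by the library total and scaled to 1000000. The classes were chosen by that value alone: libraries at 12 CPM or more were called Dbp-high and those below it Dbp-low, which gave 3 Dbp-high and 8 Dbp-low libraries, 11 of the 12 in the series. The question was how far the other genes of the circadian clock, and genes outside it, followed Dbp, as a reading of the clock phase at which the cells were collected. The labels give no time of day for any library, so no phase could be checked against them. Because the classes were made from a measured level, Dbp is described and not tested, and each p-value below is about genes that vary together with Dbp and not about a treatment.

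The libraries came from male mice, 7 to 8 weeks old at the start, and the labels cross 2 genotypes with 2 diets held for 7 weeks. ApoeKO_HFD were ApoE KO mice (B6.129P2-Apoe tm1Unc/J), which carry a disrupted gene of the lipoprotein component apolipoprotein E, on a Western-type high fat diet; ApoeKO_CD were the same strain on chow. WT_HFD were C57BL/6J mice on the high fat diet, and WT_CD the same strain on chow. Of the 3 Dbp-high libraries, 1 was ApoeKO_HFD (replicate 1), 1 ApoeKO_CD (replicate 2) and 1 WT_HFD (replicate 1). The Dbp-low libraries were 2 of ApoeKO_HFD, 2 of ApoeKO_CD, 1 of WT_HFD and all 3 of WT_CD. WT_CD therefore had no Dbp-high library, and class and label group cannot be told apart there. Whether replicates of a group were separate animals is not stated, so the tests see only how far these libraries vary, which may be technical.

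The 11 libraries held 22130323 to 46424614 counts, of which 51.5% to 71.3% fell on the mitochondrial genome. Both ranges overlapped between the classes, with mitochondrial shares of 55.4% to 66.9% in Dbp-high and 51.5% to 71.3% in Dbp-low libraries. The twelfth, WT_HFD replicate 3, held 1347110 counts, with 72.5% of those on 3597 overlapping gene pairs lying on the non-coding member of the opposite strand, against 0.630% to 0.887% in the 11 others. It was left out. Apoe, the targeted gene, had 1.92 to 3.15 TMM-scaled CPM in libraries labelled ApoeKO_HFD, 6.88 to 25.3 in those labelled ApoeKO_CD, 8.38 to 18.8 in those labelled WT_HFD and 2.12 to 3.65 in those labelled WT_CD, which goes against the labels on chow. TMM-scaled CPM are CPM after a correction for library composition, and all gene levels below are in this unit. The cardiomyocyte marker Myh6, a myosin heavy chain, was abundant in every library, and the sum of 10 ventricular markers overlapped, at 89070 to 94410 in Dbp-high and 85170 to 99500 in Dbp-low libraries.

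The circadian clock is a feedback loop of transcription that runs in nearly every cell, cardiomyocytes included. ARNTL (BMAL1), paired with CLOCK or NPAS2, binds E-box sequences and switches on the Per, Cry, Nr1d and Dbp genes; PER and CRY proteins then shut this drive off. REV-ERB proteins, made by Nr1d1 and Nr1d2, repress genes with ROR response elements such as Arntl and Nfil3, which ROR proteins activate. DBP and its relatives TEF and HLF activate genes through D-boxes, where NFIL3 represses. In mouse heart and other organs, Dbp and Per RNA therefore cycle nearly opposite to Arntl and Nfil3 RNA.

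The promoters of 5 genes that differed between the classes are shown because each holds one of these elements within the 250 bases before a RefSeq transcript start (GRCm38.p6, written in the direction of transcription, ending at the base before the start). Capitals mark matches to the E-box CACGTG, the D-box TTANGTAA or the ROR element TAGGTCA or TGGGTCA, searched on both strands. The first, Ciart, lies at chr3:95882229-95882478 on the minus strand and holds 3 E-boxes. Per3, at chr4:151044666-151044915 on the minus strand, holds 2 D-boxes. Nfil3, at chr13:52981040-52981289 on the minus strand, holds 1 ROR element, read on the opposite strand. One of the starts of Rhobtb1, at chr10:69212407-69212656 on the plus strand, and one of Adam19, at chr11:46054252-46054501 on the plus strand, hold 1 E-box each.
Ciart: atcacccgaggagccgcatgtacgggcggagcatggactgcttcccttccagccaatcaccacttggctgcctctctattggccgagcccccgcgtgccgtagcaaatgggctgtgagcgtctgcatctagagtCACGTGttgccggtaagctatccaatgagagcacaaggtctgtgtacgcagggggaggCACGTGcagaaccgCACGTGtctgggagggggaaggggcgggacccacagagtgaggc
Per3: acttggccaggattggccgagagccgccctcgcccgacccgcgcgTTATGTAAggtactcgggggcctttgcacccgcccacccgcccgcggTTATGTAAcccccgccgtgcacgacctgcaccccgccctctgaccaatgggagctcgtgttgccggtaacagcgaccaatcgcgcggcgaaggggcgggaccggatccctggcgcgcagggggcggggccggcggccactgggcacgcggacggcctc
Nfil3: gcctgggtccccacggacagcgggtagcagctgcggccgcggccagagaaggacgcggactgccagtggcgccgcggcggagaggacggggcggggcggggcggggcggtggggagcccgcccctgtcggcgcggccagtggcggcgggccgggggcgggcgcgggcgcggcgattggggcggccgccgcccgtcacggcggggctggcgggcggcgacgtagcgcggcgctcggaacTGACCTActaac
Rhobtb1: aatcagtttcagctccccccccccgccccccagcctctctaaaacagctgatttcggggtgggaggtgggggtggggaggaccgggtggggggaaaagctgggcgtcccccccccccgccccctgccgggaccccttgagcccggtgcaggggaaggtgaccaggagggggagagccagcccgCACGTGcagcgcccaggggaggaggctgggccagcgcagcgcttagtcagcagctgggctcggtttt
Adam19: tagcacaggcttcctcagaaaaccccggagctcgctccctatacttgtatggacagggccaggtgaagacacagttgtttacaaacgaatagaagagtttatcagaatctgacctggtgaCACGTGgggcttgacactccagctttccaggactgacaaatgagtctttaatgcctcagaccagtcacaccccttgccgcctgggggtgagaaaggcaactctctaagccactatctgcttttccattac
The Ciart E-boxes begin 116, 58 and 44 bases before the start, the Per3 D-boxes 205 and 158, and the Nfil3 element 12. E-boxes also stood before starts of Per1, Tef, Cry1 and Bhlhe41, and 21 of the 24 clock or called genes had a RefSeq promoter. Other windows held none of the elements, among them those of Arntl, Ypel2, Dbp, Nr1d1 and Nr1d2. Such matches occur widely: of 32851 RefSeq promoter windows of this length in the mouse, 6.02% held the E-box, 2.06% the D-box and 5.38% the ROR element. Among promoters of genes tested here the shares were 7.94%, 1.47% and 4.27%. Promoters of genes higher in Dbp-high libraries at an unadjusted p under 0.05 held the E-box in 13.3% of 210 cases, and those of genes lower at that p in 8.24% of 267. The ROR element stood in 1.90% of the higher and 5.24% of the lower set, and the D-box in 0.952% of the higher and 1.87% of the lower set. These shares are descriptions, and a match is not a measured binding site.

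Dbp itself, the gene that set the classes, ranged widely (chromosome 7, 45705088 to 45710203, GRCm38). Its plain level was 42.5 CPM in ApoeKO_CD replicate 2, 39.0 in WT_HFD replicate 1 and 20.7 in ApoeKO_HFD replicate 1. In the Dbp-low libraries it ran from 1.46 CPM in WT_CD replicate 1 through a median of 7.29 to 9.39 in ApoeKO_CD replicate 3. The values nearest the threshold on each side were thus 20.7 CPM (754 counts) and 9.39 CPM (300 counts). Scaled to 1000000 nuclear counts, which leaves out the mitochondrial share, Dbp was at 46.4 to 118 in Dbp-high and 3.92 to 23.2 in Dbp-low libraries, so the classes were the same on that scale. ApoeKO_HFD replicate 1 stood between the other 2 Dbp-high libraries and the Dbp-low ones.

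**Figure D1:**
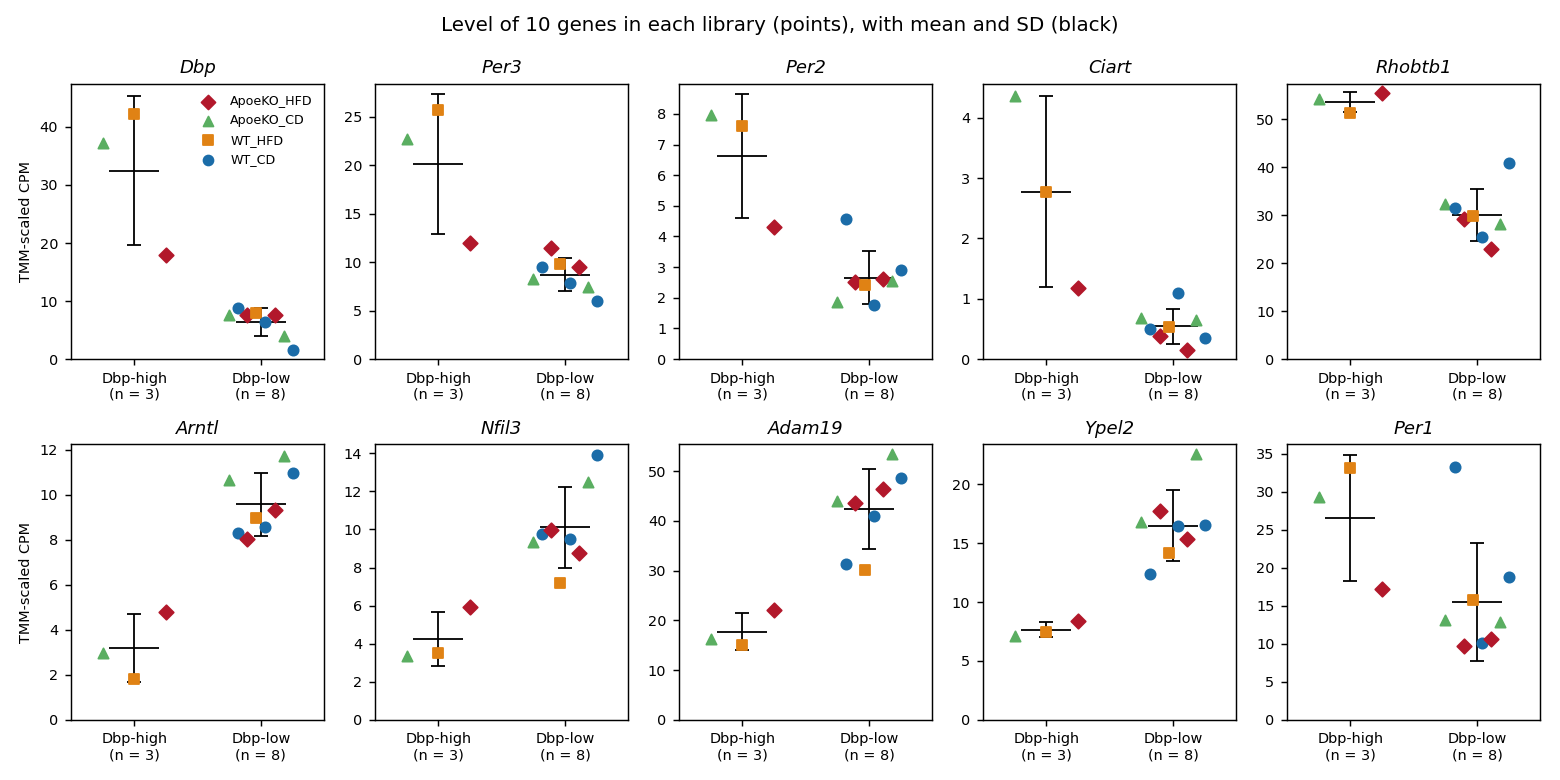
TMM-scaled CPM (vertical axes, linear from 0) of 10 genes in each library, Dbp-high left and Dbp-low right; each point is a library coloured by its label group, and the black mark is the mean with its SD. Arntl, Nfil3, Adam19 and Ypel2 sit lower in the 3 Dbp-high libraries than in all 8 Dbp-low ones, while Per1 and Per2 overlap between the classes, with WT_CD replicate 3 the highest Dbp-low library for both.

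Across 15578 genes tested (edgeR quasi-likelihood, Benjamini-Hochberg adjusted over all of them), few differed between the classes, and most of those that did were clock genes. At an adjusted p under 0.05, 8 genes were called, 0.0514% of those tested: 4 were higher (0.0257%), namely Per3, Per2, Ciart and Rhobtb1, and 4 lower (0.0257%), namely Arntl, Nfil3, Adam19 and Ypel2. The 4 lists of core clock genes (activators, repressors, ROR and REV-ERB receptors, and D-box factors) have 20 tested members besides Dbp, and 5 of the 8 called genes are among them. The other 15558 genes gave 3 calls. At an unadjusted p under 0.05, 12 of the 20 clock genes passed, against 3.48% of all genes tested: 9 were higher, against 1.61% of all genes, and 3 lower, against 1.87%. The classes did not overlap in 9 of the 20 (45.0%), against 1.24% of all genes: in 6 the Dbp-high libraries were higher (0.693% of all genes) and in 3 lower (0.546%). The median log2 fold change was 0.35 for the clock genes and −0.00 for all genes. These lists were drawn up with the behaviour of Dbp in these libraries already known. In bulk RNA, fewer cells of a type and less RNA per cell cannot be told apart.

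Among the activators, Arntl, which encodes the partner shared by CLOCK and NPAS2, fell (ENSMUSG00000055116, chromosome 7, 113207465 to 113314126). It was at 4.79 in ApoeKO_HFD replicate 1, 2.97 in ApoeKO_CD replicate 2 and 1.80 in WT_HFD replicate 1, against a lowest value of 8.02, a median of 9.14 and a highest of 11.7 in the Dbp-low libraries. No Dbp-high library reached the lowest Dbp-low one. The log2 fold change was −1.58 (SE 0.22, edgeR adjusted p = 0.00476), and Dbp-low libraries had 2.98 times the level. Npas2, the alternative partner and one of the markers given for the clock phase, was at 2.96, 1.90 and 1.55 in the same 3 libraries, against 2.16 to 3.33 (median 2.65) in Dbp-low. Its classes overlapped, and its log2 fold change of −0.31 (SE 0.21, edgeR adjusted p = 1.00) did not pass. Clock itself, at 28.9 to 33.7 in Dbp-high and 26.7 to 41.4 in Dbp-low libraries, and Arntl2, at 0.980 to 1.66 and 0.904 to 1.85, overlapped as well.

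Of the 8 repressors of the loop, 3 were called higher and none lower. Ciart (CHRONO), a repressor of ARNTL with CLOCK, rose with the largest fold of the 8 called genes (ENSMUSG00000038550, chromosome 3, 95878503 to 95882251). It had 1.18, 4.35 and 2.78 in ApoeKO_HFD replicate 1, ApoeKO_CD replicate 2 and WT_HFD replicate 1, against 0.149 to 1.10 (median 0.512) in Dbp-low libraries. The first of these stood just above the highest Dbp-low value. Its log2 fold change was 2.34 (SE 0.39, edgeR adjusted p = 0.0196), a rise of 5.07-fold at a low level of expression.

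Per3, a period gene, rose 2.30-fold (ENSMUSG00000028957, chromosome 4, 151003652 to 151044665). It had 11.99, 22.7 and 25.7 in those 3 libraries, against 5.98 to 11.4 (median 8.84) in Dbp-low ones. ApoeKO_HFD replicate 1 was again close to the Dbp-low range. The log2 fold change was 1.20 (SE 0.19, edgeR adjusted p = 0.0196). Per3 overlaps the protein-coding gene Camta1 on the same strand, and Camta1 showed a log2 fold change of 0.08 (SE 0.10).

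Per2, the period gene whose protein pairs with CRY in repression, rose 2.50-fold (ENSMUSG00000055866, chromosome 1, 91415982 to 91459324), with a log2 fold change of 1.32 (SE 0.23, edgeR adjusted p = 0.0294). It had 4.31, 7.96 and 7.62 in the 3 Dbp-high libraries, against 1.77 to 4.56 (median 2.53) in the Dbp-low ones. The 1 overlapping Dbp-low library was WT_CD replicate 3. Per1, also given as a marker of the phase, followed the same shape without passing. It had 17.2, 29.3 and 33.1 in Dbp-high libraries, against 9.74 to 33.2 (median 12.9) in Dbp-low, with WT_CD replicate 3 at the top. Its log2 fold change was 0.78 (SE 0.36, edgeR adjusted p = 1.00), and without that library it was 1.03 (edgeR adjusted p = 0.252). Of the 3 markers other than Dbp, then, Arntl was called and Per1 and Npas2 were not.

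The other repressors did not pass the adjusted threshold. Bhlhe40 (DEC1), which competes for E-boxes, had 31.2 to 39.0 in Dbp-high and 11.5 to 24.5 in Dbp-low libraries and missed it narrowly, with a log2 fold change of 0.82 (SE 0.15, edgeR adjusted p = 0.0665). Its relative Bhlhe41 had 0.40 (SE 0.16), and the cryptochromes differed in sign. Cry1 was at 2.02 to 3.13 in Dbp-high libraries, below all Dbp-low ones at 3.38 to 6.75, with a log2 fold change of −0.72 (SE 0.21, edgeR adjusted p = 0.939). Cry2 was at 0.35 (SE 0.15, edgeR adjusted p = 1.00).

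Among the nuclear receptors of the stabilising loop, the REV-ERB genes had higher values in all 3 Dbp-high libraries than in any Dbp-low one, without reaching the adjusted threshold. Nr1d1 was at 33.1 to 39.7 against 16.4 to 30.3, with a log2 fold change of 0.59 (SE 0.15, edgeR adjusted p = 0.483), and Nr1d2 at 41.0 to 45.4 against 15.4 to 31.7, with 0.77 (SE 0.18, edgeR adjusted p = 0.388). Rora and Rorb, which encode activating receptors, had 0.03 (SE 0.10) and 0.36 (SE 0.26), with overlapping classes.

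Among the D-box factors, Nfil3 (E4BP4), the repressor, fell (ENSMUSG00000056749, chromosome 13, 52967209 to 52981073). It had 5.90, 3.37 and 3.51 in ApoeKO_HFD replicate 1, ApoeKO_CD replicate 2 and WT_HFD replicate 1, against 7.16 to 13.9 (median 9.62) in Dbp-low libraries. The classes did not overlap. The log2 fold change was −1.23 (SE 0.21, edgeR adjusted p = 0.0199), and Dbp-low libraries had 2.35 times the level. The activator Tef had 38.8 to 50.4 in Dbp-high and 26.0 to 36.0 in Dbp-low libraries, also without overlap, with a log2 fold change of 0.60 (SE 0.12, edgeR adjusted p = 0.113). Hlf, the remaining activator, had 0.23 (SE 0.17).

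**Figure D2:**
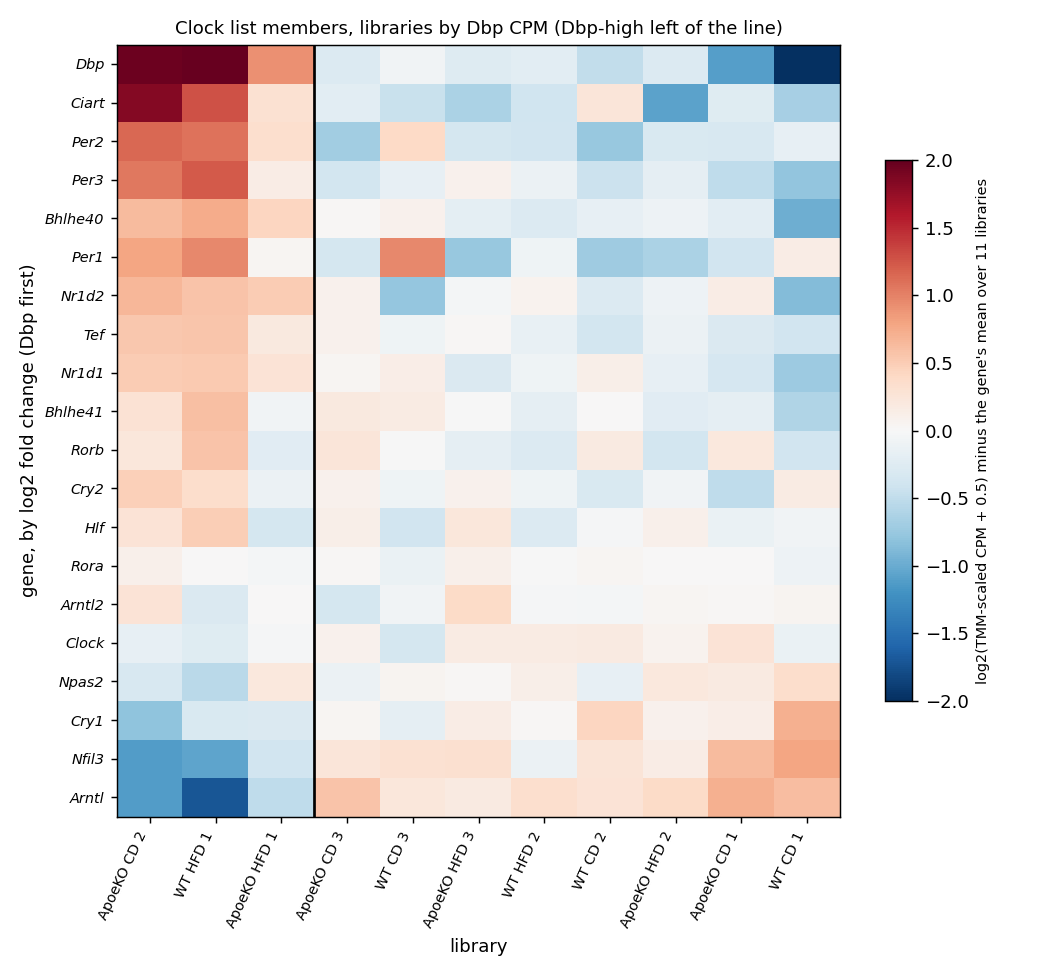
Members of the 4 clock lists (rows, 1 member not shown, Dbp first and then by log2 fold change) in the 11 libraries (columns, by falling Dbp CPM, Dbp-high left of the line), coloured by log2(TMM-scaled CPM + 0.5) minus the gene's mean over the libraries, with colours capped at ±2. REV-ERB genes, Tef and the repressors of the loop other than Cry1 lean to higher values on the left. Arntl, Nfil3 and Cry1 lean to lower ones. ApoeKO_HFD replicate 1 lies between the other Dbp-high libraries and the Dbp-low ones for Dbp, Arntl and Nfil3.

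Outside the core clock, 3 genes were called. Rhobtb1, which encodes an adaptor of a cullin ubiquitin ligase, rose 1.78-fold (ENSMUSG00000019944, chromosome 10, 69151434 to 69291791). It had 55.4, 54.2 and 51.2 in the 3 Dbp-high libraries, against 22.9 to 40.8 (median 29.6) in Dbp-low, with no overlap and with ApoeKO_HFD replicate 1 as high as the other 2. The highest Dbp-low value was that of WT_CD replicate 1, the library with the lowest Dbp. The log2 fold change was 0.84 (SE 0.13, edgeR adjusted p = 0.0141). Adam19, a membrane metalloprotease needed for heart development in the mouse, fell (ENSMUSG00000011256, chromosome 11, 46055992 to 46147343). It had 22.0, 16.2 and 15.0 in Dbp-high libraries, against 30.1 to 53.4 (median 43.9) in Dbp-low, again with no overlap. Its log2 fold change was −1.25 (SE 0.17, edgeR adjusted p = 0.00476). Ypel2, a member of the conserved yippee-like family that was listed among clock-controlled genes, fell likewise (ENSMUSG00000018427, chromosome 11, 86936425 to 86993707). It had 8.36, 7.13 and 7.43 against 12.4 to 22.6 (median 16.5), and the 3 Dbp-high values lay close together. Its log2 fold change was −1.11 (SE 0.16, edgeR adjusted p = 0.00476).

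The next gene by p among the lower ones, Fam222a, had 0.831 to 1.14 in Dbp-high and 1.73 to 4.64 in Dbp-low libraries, a log2 fold change of −1.40 (SE 0.31, edgeR adjusted p = 0.249) that did not pass. Bhlhe40 stood next among the higher ones.

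**Figure D3:**
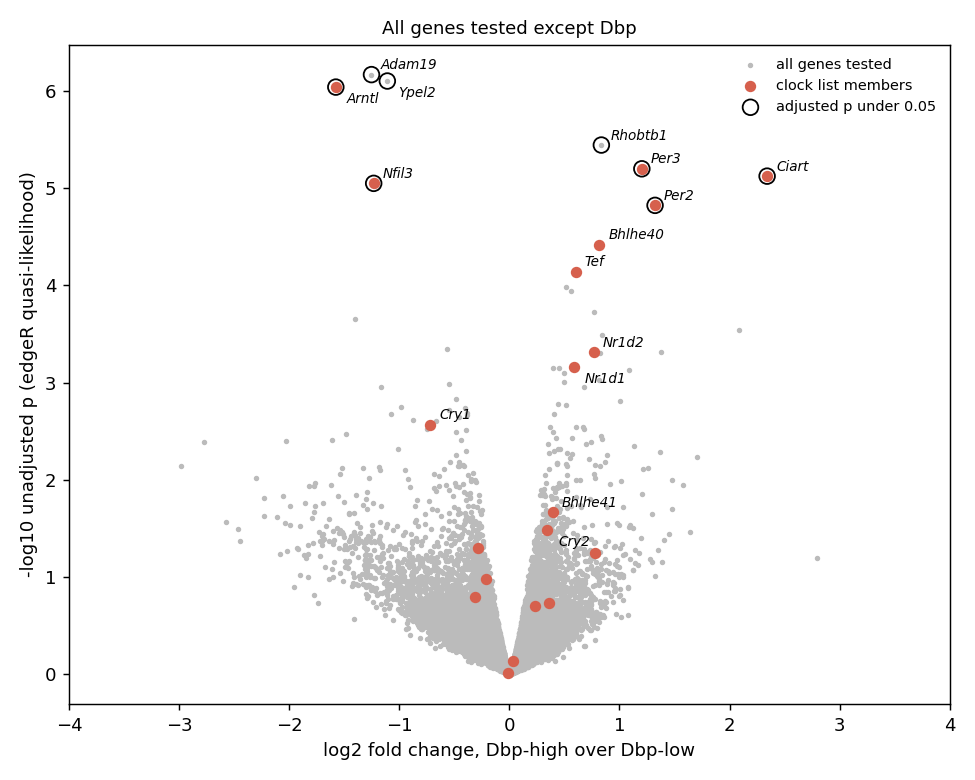
Log2 fold change of Dbp-high over Dbp-low libraries (horizontal axis, cut at ±4, with 1 gene outside) against the −log10 unadjusted p of edgeR (vertical axis) for the 15578 genes tested. Clock list members are red, the 8 called genes are circled, and both are named where p is under 0.05; Arntl, Adam19 and Ypel2 stand at the upper left, Rhobtb1, Per3, Ciart and Per2 at the upper right.

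Within label groups the called genes kept their directions, and the choice of these genes had already fixed this. The classes did not overlap for any of them but Per2. Per2 overlapped only through WT_CD replicate 3, whose group has no Dbp-high library. The sizes of the differences within groups were not fixed in this way. In ApoeKO_HFD, ApoeKO_CD and WT_HFD the Dbp-high library was set against the mean of the Dbp-low ones of its own group, on the scale of log2(TMM-scaled CPM + 0.5). Arntl differed by −0.79, −1.75 and −2.05 in these groups. Nfil3 differed by −0.62, −1.55 and −0.93, and Ciart by 1.16, 2.06 and 1.67. Of these, the ApoeKO_HFD difference was the one nearest 0 each time. Per3 differed by 0.20, 1.48 and 1.34, so the ApoeKO_HFD pair contributed little to it. For Rhobtb1, with 1.08, 0.84 and 0.77, the ApoeKO_HFD difference was the one farthest from 0, and Adam19 had −1.02, −1.56 and −0.98. Ypel2 had −0.94, −1.39 and −0.89, Per2 0.66, 1.65 and 1.47, and Per1 0.73, 1.15 and 1.05. Npas2 was mixed, at 0.10, −0.35 and −0.65. Of the 20 clock genes 14 had 1 sign in all 3 groups, 10 higher and 4 lower, against 23.9% of all genes, 12.1% higher and 11.8% lower. Clock genes whose classes did not overlap were bound to be among the 14. Atrial content went with the class in both high fat groups. Myl7, the atrial light chain gene, was at 4.53 in the Dbp-high ApoeKO_HFD library, against 0.260 and 0.600 in its Dbp-low partners, and at 14.7 in the Dbp-high WT_HFD library, against 0.0663 in the Dbp-low one. Class and atrial content therefore cannot be told apart within those 2 groups. In ApoeKO_CD, Myl7 was at 8.71 in the Dbp-high library and at 4.12 and 10.8 in the Dbp-low ones, on either side of it.

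With label group as a term in the edgeR fit, 5 genes were called (0.0321% of those tested), all of them among the 8. Ciart (adjusted p = 0.0197) and Rhobtb1 (adjusted p = 0.0320) stayed higher (0.0128%), and Arntl, Adam19 and Ypel2 (adjusted p = 0.0152 each) lower (0.0193%). Per3 had 1.05 (SE 0.21, edgeR adjusted p = 0.222), Per2 1.42 (SE 0.26, adjusted p = 0.129) and Nfil3 −1.10 (SE 0.21, adjusted p = 0.129) on the log2 scale, with sizes near those without the term.

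**Figure D4:**
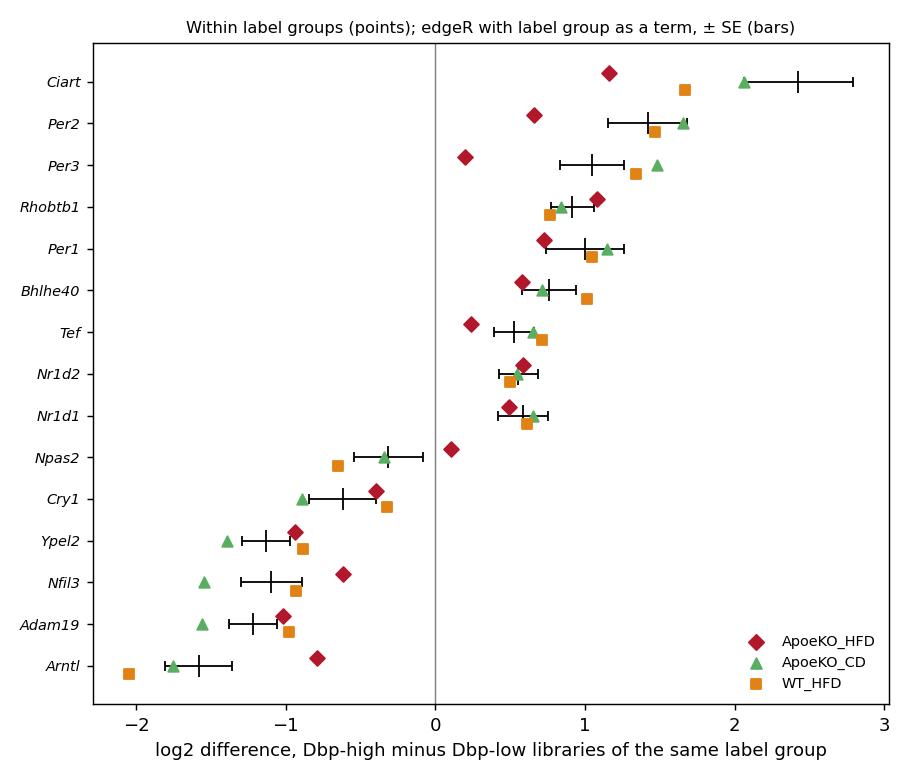
Log2 difference between the Dbp-high library and the Dbp-low libraries of the same label group (horizontal axis) for named genes (rows), with a point for each of ApoeKO_HFD, ApoeKO_CD and WT_HFD; black bars are the edgeR log2 fold change ± SE with label group as a term. The points of Arntl, Nfil3, Adam19 and Ypel2 all lie left of 0 and those of Per3, Per2, Ciart and Rhobtb1 all right of it, with Per3 at 0.20 in ApoeKO_HFD. For these genes the side of 0 follows from the difference between the classes and is not separate evidence.

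The calls rested on few Dbp-high libraries. Without ApoeKO_CD replicate 2, edgeR called 0 genes (354 at an unadjusted p under 0.05), and without WT_HFD replicate 1 also 0 (534 at that p). DESeq2 called 17 genes with all 11 libraries, among them all 8. In those 2 fits 11 and 10 of the 20 clock genes had an unadjusted p under 0.05, against 2.08% and 3.21% of all genes tested. Without ApoeKO_HFD replicate 1, the library nearest the threshold, 7 were called, and the log2 fold changes moved to −2.02 for Arntl, 1.48 for Per3 and −1.54 for Nfil3. Rhobtb1 was then the one lost, at 0.82 (edgeR adjusted p = 0.0656).

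Among the fits that left out 1 of the 11 libraries, Arntl (−2.02 to −1.28), Adam19 (−1.43 to −1.14) and Ypel2 (−1.17 to −1.03) lost their calls only in those without ApoeKO_CD replicate 2 or WT_HFD replicate 1. Rhobtb1 (0.79 to 0.91) was also lost without ApoeKO_HFD replicate 1, and Nfil3 (−1.54 to −1.08) without ApoeKO_CD replicate 1. Per3 (0.99 to 1.48) was also lost without WT_CD replicate 2 or 3. Ciart (1.88 to 2.72) was also lost without ApoeKO_HFD replicate 3, WT_CD replicate 1 or WT_HFD replicate 2. Per2 (1.19 to 1.57) was the least secure and stayed called only without ApoeKO_HFD replicate 1 or WT_CD replicate 3. Each of the 8 genes kept its sign in all 22 alternative fits that compare the classes, which their choice by this same difference had largely fixed.

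The Dbp-low libraries also differed among themselves in the clock. WT_CD replicate 1, which had the lowest Dbp, was also lowest of all 11 for Per3 (5.98), Nr1d1 (16.4), Nr1d2 (15.4) and Bhlhe40 (11.5) and highest for Nfil3 (13.9) and Cry1 (6.75). Not all clock genes followed: its Per1 (18.7) and Per2 (2.91) were the next below WT_CD replicate 3 among the Dbp-low libraries. Its Cry2 (12.7) was the highest of them. WT_CD replicate 3, in contrast, had Per1 (33.2) and Per2 (4.56) above the other Dbp-low libraries while its Dbp was at 8.26 CPM. Within the 8 Dbp-low libraries, 20 clock genes were correlated with Dbp on the log2 scale, with p adjusted over the 20. The permutations behind p took no account of label group, and Dbp is the gene that set the classes. These p-values are therefore no separate support for the classes. Per3 passed by Pearson's r, at 0.855 (exact permutation p = 0.00196, adjusted 0.0392), and not by Spearman's rho, at 0.905 (exact permutation p = 0.00456, adjusted 0.0913). Without the 2 libraries farthest from the median of Dbp, WT_CD replicate 1 and ApoeKO_CD replicate 1, its r was 0.530 (n = 6), so the relation leaned on them. None of the other 19 passed. Bhlhe40 had r = 0.909 (rho = 0.476), Nr1d1 0.853 (rho = 0.595), Nfil3 −0.830 (rho = −0.548) and Cry1 −0.826 (rho = −0.786), each with an adjusted exact permutation p of 0.0747 for r and of 0.186 or more for rho. Per1 (−0.10), Per2 (−0.04) and Ciart (0.09) showed no such relation among these libraries.

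Over all 11 libraries, as a description that includes the 3 chosen for their Dbp, the genes most like Dbp in log2 level, among those averaging 3 or more in log2 CPM, were Bhlhe40 (r = 0.967), Per3 (0.950), Nr1d1 (0.936), Tef (0.930) and Ubxn7 (0.913). The most opposite were Nfil3 (−0.958), Irf2bp2, a transcriptional corepressor (−0.918), Arid5b (−0.912), Adam19 (−0.909) and Rcan1, an inhibitor of the phosphatase calcineurin (−0.881). Here the 2 libraries farthest from the median of Dbp were WT_HFD replicate 1 and ApoeKO_CD replicate 2, both Dbp-high. Without them r was 0.940 for Bhlhe40, 0.896 for Per3 and −0.893 for Nfil3. For Adam19 it was −0.740. Among these genes Ubxn7, Irf2bp2, Arid5b and Rcan1 were not called between the classes. Of the 8 genes that were called, Rhobtb1 had the r nearest 0, at 0.593 over all 11 libraries. Without WT_HFD replicate 1 and ApoeKO_CD replicate 2 it was 0.162.

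**Figure D5:**
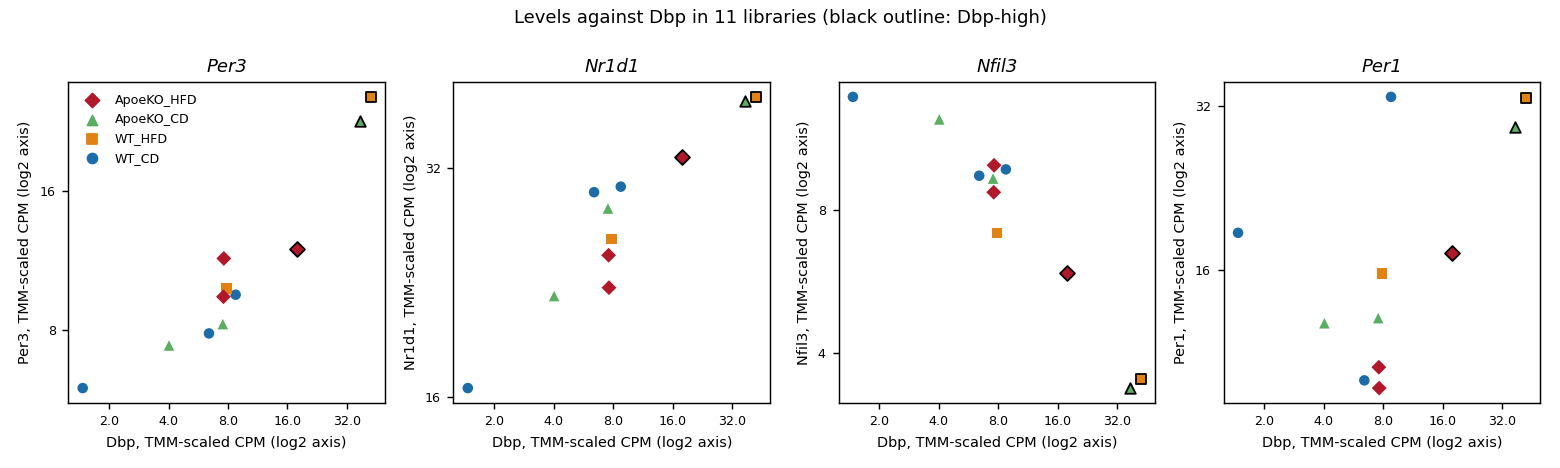
Levels of Per3, Nr1d1, Nfil3 and Per1 (vertical axes) against Dbp (horizontal axes) in the 11 libraries, in TMM-scaled CPM on log2 axes; each point is a library coloured by its label group, with a black outline where it is Dbp-high. Per3 and Nr1d1 run upward with Dbp and Nfil3 downward, while the highest Per1 of the Dbp-low libraries, 33.2 in WT_CD replicate 3, stands level with the highest Dbp-high value, 33.1.

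Of 25 tested genes listed as clock-controlled in heart or other tissues, 1 (Ypel2) was called, and 10 had an unadjusted p under 0.05, 6 higher and 4 lower (40.0%, against 3.48% of all genes). The following genes were chosen after their values were seen. Gpcpd1, a glycerophosphodiesterase, had 119 to 130 in Dbp-high and 69.4 to 98.0 in Dbp-low libraries (log2 fold change 0.56, SE 0.12, edgeR adjusted p = 0.150). Coq10b, which helps coenzyme Q function, had 0.68 (SE 0.18), Usp2, a ubiquitin protease that acts on clock proteins, 0.44 (SE 0.12), and Leo1, of the Paf1 complex, −0.49 (SE 0.13), with adjusted p of 0.584 or more by edgeR. Klf9, induced by glucocorticoids, had 40.9 to 49.6 in Dbp-high and 28.2 to 37.4 in Dbp-low libraries (log2 fold change 0.52, SE 0.11, edgeR adjusted p = 0.147). Ddit4, induced by glucocorticoids and low energy, lay on the other side, at 1.07 to 4.27 against 4.76 to 9.62 (log2 fold change −1.17, SE 0.30, edgeR adjusted p = 0.584).

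No member was called in the lists of metabolism, contraction and stress. The counts at an unadjusted p under 0.05 stand beside 3.48% of all genes tested. They were 4 of 18 glucocorticoid-induced genes (22.2%), 1 of 24 immediate early genes, 0 of 14 heat shock genes, 1 of 23 PPAR-alpha targets (Cpt1a, which admits fatty acids to mitochondria), 0 of 21 SREBP and LXR lipid genes and 1 of 17 genes of glucose use (Pfkfb1). Of 12 genes of insulin signalling and atrophy, 3 did, and of 20 fatty acid oxidation enzymes 1. By this count the immediate early, PPAR-alpha, fatty acid oxidation and glucose lists were near the share over all genes. Those of glucocorticoid-induced and of insulin signalling and atrophy genes were well above it. Signs were mixed in both, with 3 higher and 1 lower in the former and 2 higher and 1 lower in the latter. Klf15, 1 of the 2, also counts among the clock-controlled genes above. Of the 24 immediate early genes 9 were higher within all 3 label groups and 0 lower, against 12.1% and 11.8% of all genes. Their median log2 fold change was 0.14 (0.26 with label group as a term). None of 15 cardiac ion channel genes, 9 calcium handling genes, 20 nuclear oxidative phosphorylation genes or 10 cell cycle genes had an unadjusted p under 0.05. Interferon-stimulated genes had 2 of 13 (15.4%), 1 higher and 1 lower. NF-kappaB and cytokine genes had 2 of 14 (14.3%), both higher, while the 8 clock kinases and ligases had 1, Usp2. Of the 14 NF-kappaB and cytokine genes 13 lay above 0, with a median log2 fold change of 0.39 (0.52 with label group as a term). Within all 3 label groups 10 of them were higher and 1 lower, against 12.1% and 11.8% of all genes. The shift of this list was not tested.

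Markers of other cell types did not reach the adjusted threshold. No member of the lists of atrial, macrophage, endothelial, or smooth muscle and pericyte markers had an unadjusted p under 0.05. The summed level of 10 atrial genes was 149 to 284 in Dbp-high and 75.9 to 208 in Dbp-low libraries, with a median log2 fold change of 0.58 and all 10 above 0. With label group as a term that median was 2.05, and Myl7 had 2.75 (SE 1.12), Myl4, another atrial light chain gene, 2.56 (SE 1.10) and Sln, the sarcolipin gene, 2.34 (SE 0.83). Myl7 was at 4.53 to 14.7 in Dbp-high libraries and at 0.0663 to 17.9 in Dbp-low ones. The 3 Dbp-low libraries below 1 were all of the Dbp-low libraries of the high fat groups. Of 16 macrophage markers 14 were tested, 13 of them above 0, with a median log2 fold change of 0.52 (0.62 with label group as a term) and sums of 11.9 to 42.6 in Dbp-high and 7.54 to 48.7 in Dbp-low libraries. Of 15 endothelial markers 12 lay below 0 and the median log2 fold change was −0.40 (−0.29 with label group as a term), and 9 were lower within all 3 label groups, as were 11.8% of all genes. Their sums were 532 to 572 in Dbp-high and 451 to 725 in Dbp-low libraries, of which Cd36, a fatty acid transporter gene, made 422 to 435 and 263 to 510. Smooth muscle sums were 254 to 280 in Dbp-high and 186 to 283 in Dbp-low libraries. Fibroblast sums were 35.8 to 44.0 in Dbp-high and 18.3 to 39.3 in Dbp-low libraries, with 2 of 10 genes, Dcn and Gsn, higher at an unadjusted p under 0.05, against 1.61% of all genes. The part of the endothelial and fibroblast levels in the results was not tested. Lymphocyte and neutrophil, erythroid, adipocyte and neural sums were at most 2.08 in any library. S100a8, a neutrophil gene, was at 0 in all 3 Dbp-high libraries.

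With the atrial level as a covariate, edgeR called 3 genes, Arntl (−1.54), Adam19 (−1.25) and Ypel2 (−1.14, adjusted p = 0.0174 each). The calls on Per3 (1.25, adjusted p = 0.0888), Per2 (1.20, 0.268), Ciart (1.99, 0.164), Rhobtb1 (0.81, 0.0776) and Nfil3 (−1.28, 0.0548) ended there. Without the atrial covariate their log2 fold changes were, in that order, 1.20, 1.32, 2.34, 0.84 and −1.23, so Ciart moved the most. With the macrophage level as a covariate, the 4 lower genes stayed called. The 4 higher ones had adjusted p of 0.0583 to 0.314, with log2 fold changes of 1.20 for Per3, 1.16 for Per2, 2.07 for Ciart and 0.81 for Rhobtb1, against 1.20, 1.32, 2.34 and 0.84 without it.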

How the data were processed

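Whole-number counts of reads per gene were deposited by the authors for 12 libraries, with no normalization. Per the labels' protocols, a Maxwell RSC kit served for RNA and the SMART-Seq Stranded kit, a strand-keeping method, for the libraries. GRCm38 (mm10) is the build, and HTSeq 0.13.5, STAR 2.7a and Trimmomatic 0.39 are the tools that the submitters' processing notes name. Of 55335 gene identifiers, 55154 matched a symbol and 181 did not.

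Classes were set by Dbp CPM as described, leaving out WT_HFD replicate 3. The test was edgeR 4.0.16 (R 4.3.3), with TMM factors, filterByExpr by class, robust quasi-likelihood F test, 9 residual degrees of freedom, two-sided. P-values were adjusted by the Benjamini-Hochberg method over 15578 genes, Dbp left out, and called under 0.05. The SE was derived from the test, as the absolute log2 fold change divided by the square root of its F statistic. The procedure was tested on simulated counts with the same dispersion for every gene and no label groups, a simpler setting than these libraries. It recovered 79 of 100 changes of 2-fold and 100 of 100 of 4-fold, with 5 false calls. Alternatives were other scaling factors, filters, covariates and terms, DESeq2 1.42.0, limma 3.58.1 voom, Dbp as a continuous covariate, and each library left out in turn. Replicates of a label group differed by more than sampling noise (chi-square per degree of freedom 24.5 to 189.7), and each was used as its own sample.

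The classes and the 31 gene lists were chosen with earlier results of these data known. Genes named are Dbp; all members of the 4 clock lists; up to 10 called genes in each direction outside them, whose classes do not overlap and whose log2 CPM averages 3 or more; up to 4 called members of each other list; the smallest p-values, to fill up to 5 in each direction; and the 5 genes most and 5 least correlated with Dbp. The text marks genes picked outside this rule, with their values in view. One member of the clock lists is counted but not reported here by name. Promoters came from RefSeq.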

Additional observations from a re-analysis of the deposited data

Results flagged for a closer look

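Of 29 named genes, 5 had a Dbp-low library that stood apart from the other 7 of its class. Chance alone flags about 1 in 20 sets of unrelated values, and all 5 flags fall on 2 WT_CD libraries. That rate is no yardstick for these genes. Ubxn7, Arid5b and Bhlhe40 were named at least in part for their correlation with Dbp, and Per1 and Per2 belong to the same loop. In WT_CD replicate 3, Per1 was at 33.23 TMM-scaled CPM, against 18.74 in the next Dbp-low library, and Per2 was at 4.563, against 2.911. Per1 there was as high as in the Dbp-high libraries (17.2 to 33.1), while its Dbp was low. In WT_CD replicate 1, the library with the lowest Dbp, Bhlhe40 was at 11.55 with the next value at 19.08, Ubxn7 at 9.532 with the next at 11.95, and Arid5b at 26.13 with the next at 22.65.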

How the results depend on the processing

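The counts of genes called higher and lower in Dbp-high libraries, 4 and 4, were 10 and 7 by DESeq2, 25 and 8 by limma voom, 27 and 9 with no filter on low counts, and 8 and 7 with log2 Dbp as a continuous covariate. They were 2 and 3 with label group as a term, 0 and 3 with the atrial covariate (956 genes at an unadjusted p under 0.05), and 0 and 4 with the macrophage covariate (700 at that p). RLE factors and nuclear genes alone gave 4 and 4, diet and genotype as terms 5 and 3, and a filter of 50 counts in 3 libraries 3 and 4. Leaving out 1 library gave 0 to 6 higher and 0 to 5 lower, with 0 and 0 without ApoeKO_CD replicate 2 or WT_HFD replicate 1. Of the 20 clock genes, 10 to 17 had an unadjusted p under 0.05 over the 23 alternatives, against 2.08% to 8.60% of all genes. Arntl, Adam19 and Ypel2 were called in all 11 alternatives that compare the classes with all 11 libraries and in 9 of the 11 that leave 1 out. No named gene other than Arntl2 changed sign.

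Same-numbered libraries of different groups did not deviate together: 2 of 15 pairs correlated above 0.1, with a range of −0.242 to 0.211. These values gave no sign that the numbers pair the libraries, but with so few libraries in each group they cannot exclude it. With the replicate block, 3 genes were called higher and 4 lower, 5 of them among the 8. With 3 Dbp-high libraries, and Ciart at 0.149 to 1.10 TMM-scaled CPM in Dbp-low ones, changes in low genes are measured with little precision.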
